A study of Mus musculus with 24 samples.

Results

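Mouse livers were compared here for 10 genes that mark the fetal liver, the bile duct epithelium or liver progenitor cells: H19, Afp, Gpc3, Igf2, Prom1, Sox9, Epcam, Krt19, Krt7 and Spp1. The 10 genes were named with their levels in these livers already in view, so their own levels and fold changes are given as a description and no p-value is given for them. All 10 were found by Ensembl identifier among the 21755 genes of the p16-3MR count table. In the wild-type table, which holds 12643 rows, gene labels have lost 9 lower-case letters, and only 5 of the 10 genes (Afp, Gpc3, Epcam, Krt19 and Krt7) have a label that fits a single gene symbol. The labels for Igf2, Prom1, Sox9 and Spp1 fit 5, 13, 4 and 3 symbols and were left out, and H19 was not analysed in wild-type livers.

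The study asked whether removal of p16+ cells acts differently in female and male mice. p16-3MR mice carry a transgene in which the p16 promoter drives a viral thymidine kinase, so that ganciclovir (GCV) kills cells in which that promoter is active. Female and male p16-3MR mice were given GCV or vehicle (VEH, pH 11 water) for 5 days a month from an age of 16 to 18 months, and all VEH mice of this line carry the transgene as well. Wild-type mice without the transgene were given GCV or VEH from 6 months of age for 3 months. RNA was measured in 24 livers, 3 from separate mice in each of 8 groups, by 3′ end sequencing. The p16-3MR livers form batch 1 and the wild-type livers batch 2, so genotype, age, length of treatment and batch cannot be told apart, and the tables were analysed separately. The sample labels give a GCV dose of 150 mg/kg for the p16-3MR mice and none for the wild-type mice, and the study's methods state another dose.

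In the fetal liver, hepatoblasts make alpha-fetoprotein (Afp), the heparan sulphate proteoglycan glypican 3 (Gpc3), the growth factor Igf2 and the long non-coding RNA H19, and these genes are shut down in hepatocytes after birth. They come back in liver tumours and during regeneration, which is why they are called oncofetal. Cholangiocytes, the cells that line the bile ducts, are marked by the keratins Krt19 and Krt7, by the adhesion molecule Epcam, by the transcription factor Sox9 and by secreted osteopontin (Spp1), and the membrane glycoprotein prominin 1 (Prom1, CD133) marks ductular and progenitor cells in injured liver.

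H19 and Igf2 are neighbours on chromosome 7 and are imprinted in opposite directions: H19 is read from the maternal copy and Igf2 from the paternal copy. In the GRCm38 annotation H19 (ENSMUSG00000000031, a long intergenic non-coding RNA) lies at chr7:142575529-142578143 and Igf2 (ENSMUSG00000048583) at chr7:142650766-142666816, both on the minus strand and 72622 bases apart. Each gene also holds a microRNA. The miR-675 hairpin (chr7:142577064-142577147) lies in an exon of 3 of the 7 annotated H19 transcripts, including exon 1 of the 5-exon transcript H19-202, and the miR-483 hairpin (chr7:142654924-142654996) lies in an intron of Igf2. The mature sequences, taken from RefSeq for GRCm38.p6, are shown because they are the products by which these host genes are known to reach other transcripts. Capitals mark the seed, bases 2 to 8.
miR-675-5p: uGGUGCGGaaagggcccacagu
miR-675-3p: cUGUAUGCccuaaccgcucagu
miR-483-5p: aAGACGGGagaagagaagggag
miR-483-3p: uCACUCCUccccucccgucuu
The 4 seeds differ from each other, and none is shared with another of the 1736 mature mouse microRNAs in the same RefSeq table. The 3′ end libraries read polyadenylated host transcripts, so the levels given for H19 and Igf2 say nothing of the amount of these microRNAs.

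Deposited counts summed to 5005760 to 7160172 per p16-3MR liver and to 3084517 to 5667904 per wild-type liver. Levels are given as CPM, counts relative to the library size after scaling by the trimmed mean of M values. At this depth 3 counts, taken as the floor, correspond to 0.293 to 0.578 CPM in 11 p16-3MR livers. The GCV female liver 33 stood apart: 64.0% of its counts were mitochondrial (12.3 to 22.4% in the others), 13409 genes were detected (16804 to 18659 in the others), and its floor was 2.32 CPM, so a CPM value in this liver rests on few counts. GCV male 32 and VEH male 24 had the lowest summed hepatocyte markers (38460 and 56070 CPM, against 100400 to 167900 CPM in the others) and the highest summed macrophage markers (4131 and 2382 CPM, against 170 to 1361 CPM in the others). Cdkn2a, the gene whose promoter drives the transgene, had between 0 and 7 counts in every p16-3MR liver, which is too few to check the removal of p16+ cells. In whole-liver RNA, fewer cells of a type and less RNA per cell cannot be told apart.

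**Figure D1:**
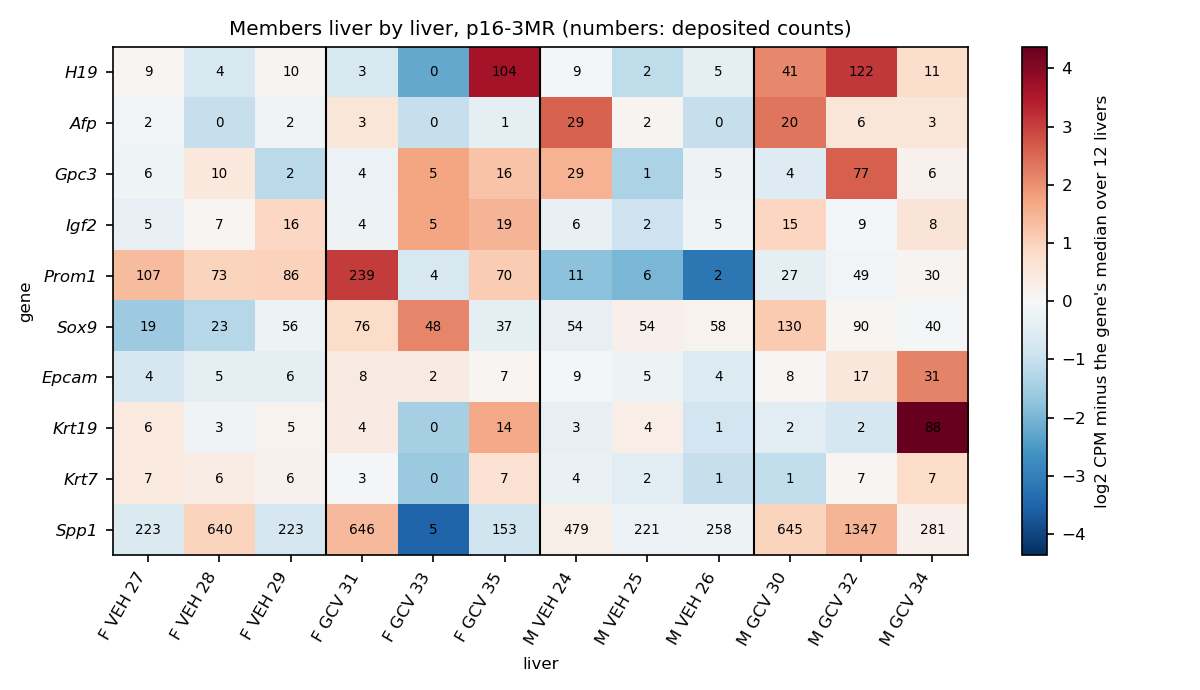
Levels of the 10 genes (rows) in the 12 p16-3MR livers (columns, with sex, treatment and liver number). Colour gives log2 CPM minus the median of that gene over the 12 livers and the number in each cell is the deposited count. H19 is highest in GCV female 35 and GCV male 32, Gpc3 in GCV male 32, and Krt19 in GCV male 34, where it reached 88 counts.

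H19 had the largest log2 fold changes of the 4 oncofetal genes between GCV and VEH livers, in both sexes. In VEH livers it lay between 2 and 10 counts, with 1.21, 0.579 and 1.26 CPM in females 27, 28 and 29 and 1.05, 0.357 and 0.781 CPM in males 24, 25 and 26. In GCV males it was 5.78, 11.9 and 2.11 CPM (livers 30, 32 and 34, 41, 122 and 11 counts). All 3 GCV males were above all 3 VEH males, with TMM and with total-count scaling, and the edgeR log2 fold change was 3.12 (SE 1.15, n = 3 per group), with 2.35 to 3.53 when each liver of the table was left out in turn. In GCV females the values were 0.578, 0 and 17.4 CPM (livers 31, 33 and 35, 3, 0 and 104 counts). The GCV females therefore lay on both sides of the VEH females: liver 35 held the highest H19 level of all 12 livers with TMM scaling (with total-count scaling liver 32 did, at 21.5 against 17.3 CPM), and the other GCV females were below every VEH female, with liver 31 at nearly the level of VEH female 28. The female log2 fold change of 2.64 (SE 1.12) rested on liver 35 and was -1.25 without it. The livers with most H19 had unlike marker profiles. Liver 32 had the highest summed macrophage and stellate cell markers of the table (4131 and 1575 CPM), whereas liver 35 had the lowest macrophage sum (170 CPM) and a stellate cell sum of 340 CPM. The part of these cell types in the H19 level was not tested.

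Igf2, which is regulated together with H19 through a shared imprinting control region, was low in all livers (2 to 19 counts). It was 2.11, 0.878 and 1.54 CPM in GCV males 30, 32 and 34 and 0.700, 0.357 and 0.781 CPM in VEH males 24, 25 and 26, so the groups did not overlap, although the gap between liver 32 and liver 26 was 9 against 5 counts. The log2 fold change in males was 1.25 (SE 0.775), with 0.87 to 1.50 over the fits that each left out a liver. In females Igf2 was 0.771, 3.86 and 3.19 CPM under GCV (livers 31, 33 and 35) and 0.670, 1.01 and 2.01 CPM under VEH (livers 27, 28 and 29). These groups overlapped, and the value of liver 33 came from 5 counts. The female log2 fold change was 1.00 (SE 0.764) and 0.62 without liver 33. H19 and Igf2 were not at their highest in the same male: GCV male 32 had the most H19 (122 counts) and GCV male 30 the most Igf2 (15 counts). Across the 12 livers, which differ in depth and RNA composition, log2 CPM of the neighbours had a Pearson r of 0.232 (Spearman rho 0.322), and without liver 33 an r of 0.673 (rho 0.718, 11 livers).

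Afp, the main serum protein of the fetus, was near the floor in most livers. Only 3 of 12 p16-3MR livers had more than 3 counts, and all of them were male: GCV male 30 (20 counts, 2.82 CPM), VEH male 24 (29 counts, 3.38 CPM) and GCV male 32 (6 counts, 0.585 CPM). The 6 female livers held 0 to 3 counts (0 to 0.578 CPM). VEH males were thus on average above VEH females (1.25 ± 1.86 against 0.173 ± 0.150 CPM, SD, n = 3 each, log2 fold change for females over males -2.73, SE 1.40), but the difference came from liver 24, and the fold change was 0.06 in the fit without it. GCV and VEH males did not differ in Afp beyond their spread (log2 fold change 0.05, SE 1.24). That fold change went from -1.17 without liver 30 to 2.84 without liver 24.

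Gpc3, a coreceptor for growth factors on the X chromosome, was carried by few livers as well: 77 of its 165 counts were in GCV male 32 and 29 in VEH male 24. In males it was 0.564, 7.51 and 1.15 CPM under GCV (livers 30, 32 and 34) and 3.38, 0.179 and 0.781 CPM under VEH (livers 24, 25 and 26). The groups overlapped, and the log2 fold change of 1.06 (SE 1.05) was -0.88 without liver 32 and 2.67 without liver 24. In females it was 0.771, 3.86 and 2.68 CPM under GCV and 0.804, 1.45 and 0.252 CPM under VEH (log2 fold change 1.44, SE 1.15, and 1.00 without liver 33). The males with most Gpc3, livers 32 and 24, were those with the lowest hepatocyte and highest macrophage sums. In these 2 livers Afp had 29 counts (3.38 CPM, liver 24) and 6 counts (0.585 CPM, liver 32). H19 had 9 counts (1.05 CPM) in liver 24 and 122 counts (11.9 CPM) in liver 32. The part of the cell makeup of livers 24 and 32 in these values was not tested.

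**Figure D2:**
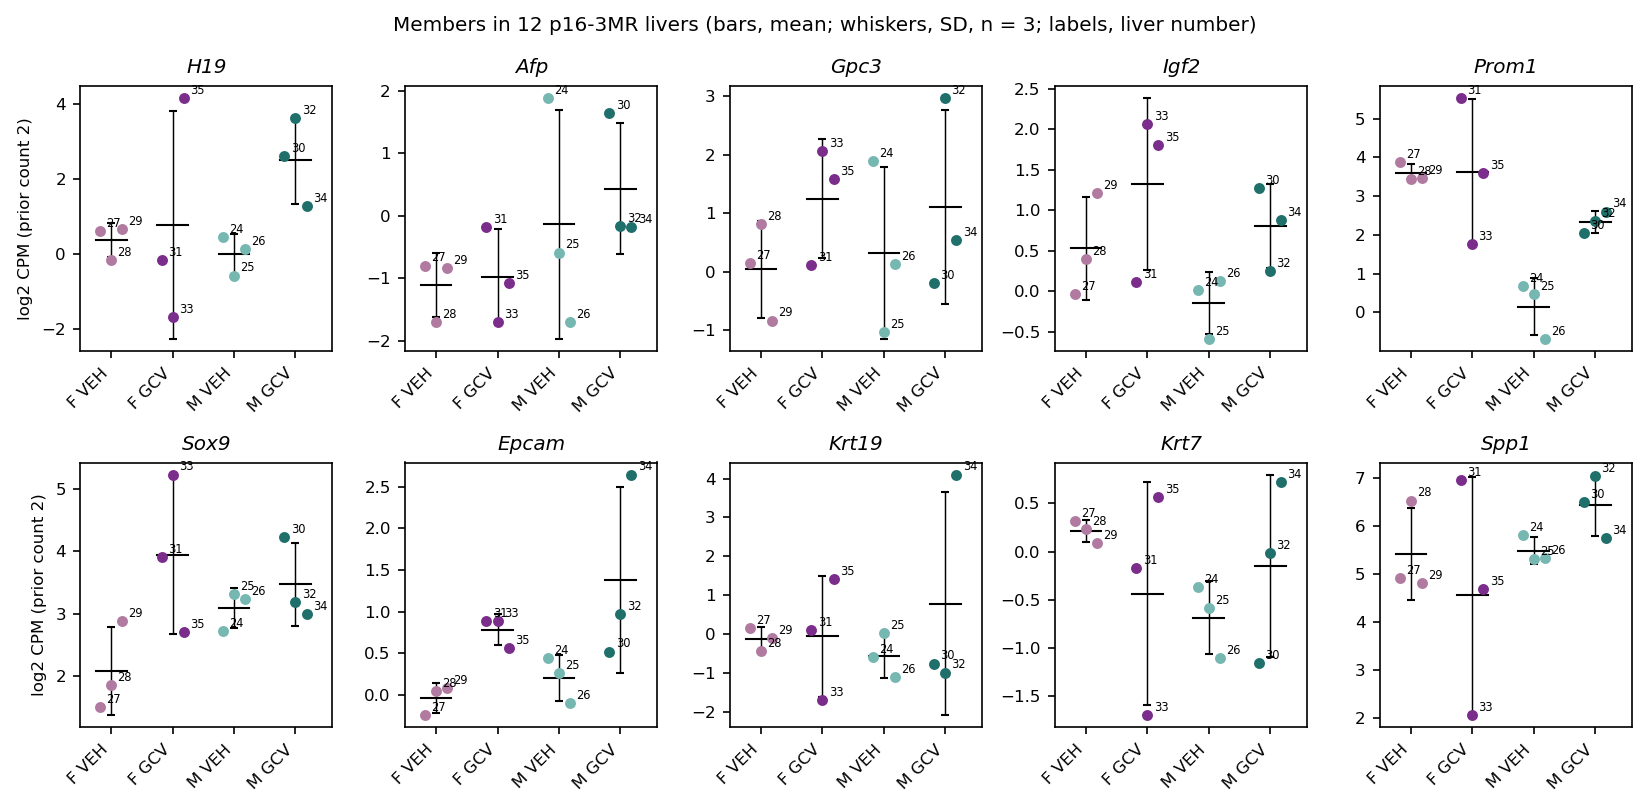
Log2 CPM (prior count 2, vertical axes) of each gene in the 4 p16-3MR groups, 1 point per liver with its number. Horizontal bars give the mean and whiskers the SD (n = 3). Prom1 separates VEH females from VEH males, while Krt19 in GCV males and H19 in GCV females are each high in a single liver.

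Of the 10 genes, Prom1 had the largest log2 fold change between the sexes under VEH. It was 14.3, 10.6 and 10.8 CPM in VEH females 27, 28 and 29 (107, 73 and 86 counts) and 1.28, 1.07 and 0.313 CPM in VEH males 24, 25 and 26 (11, 6 and 2 counts). Every VEH female was thus above every VEH male, with means of 11.9 ± 2.11 and 0.889 ± 0.511 CPM and a log2 fold change of 3.70 (SE 0.777) for females over males. The fits that each left out a liver gave 3.31 to 4.11, and scaling by total count gave 3.44. GCV males lay between these groups, at 3.80, 4.78 and 5.76 CPM in livers 30, 32 and 34 (27, 49 and 30 counts). All GCV males were above all VEH males (log2 fold change 2.38, SE 0.763, with 1.99 to 2.79 over the fits that each left out a liver) and below all VEH females. In GCV females Prom1 was 46.1, 3.09 and 11.7 CPM in livers 31, 33 and 35, on both sides of the VEH females, and the value of liver 33 rested on 4 counts. The female log2 fold change was 0.81 (SE 0.662), with -0.59 without liver 31 and 1.21 without liver 33. The response in females minus that in males was -1.57 (SE 0.994), with -2.97 to -1.15 over the fits that each left out a liver.

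The promoters of the members were searched for short motifs. AP-1, HNF1 and STAT are factors known from fetal and injured liver, whereas the TATA box and the GC box are general promoter elements. RefSeq holds a promoter of 300 bases (250 before the start and 50 from it on) for 7 of the 10 genes. H19, Sox9 and Krt19 had no entry. Letters in capitals are matches, on either strand, to an AP-1 motif (TGANTCA, found in 7.81% of the 32851 mouse promoters of the table), a GC box (GGGCGG, 35.7%), a TATA box (TATAAA, 13.6%), a short HNF1 motif (GTTAAT, 7.1%) or a STAT motif (TTCNNNGAA, 8.3%). Shown are both Prom1 promoters (minus strand, chr5:44101687-44101986 and chr5:44094719-44095018), that of Epcam (plus strand, chr17:87635729-87636028) and that of Afp (plus strand, chr5:90490464-90490763), all in GRCm38.p6.
Prom1, upstream start: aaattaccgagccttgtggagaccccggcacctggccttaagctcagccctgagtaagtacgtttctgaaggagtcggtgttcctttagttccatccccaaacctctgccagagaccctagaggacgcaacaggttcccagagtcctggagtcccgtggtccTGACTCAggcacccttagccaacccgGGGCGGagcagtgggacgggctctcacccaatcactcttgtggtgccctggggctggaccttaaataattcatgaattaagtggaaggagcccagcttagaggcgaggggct
Prom1, inner start: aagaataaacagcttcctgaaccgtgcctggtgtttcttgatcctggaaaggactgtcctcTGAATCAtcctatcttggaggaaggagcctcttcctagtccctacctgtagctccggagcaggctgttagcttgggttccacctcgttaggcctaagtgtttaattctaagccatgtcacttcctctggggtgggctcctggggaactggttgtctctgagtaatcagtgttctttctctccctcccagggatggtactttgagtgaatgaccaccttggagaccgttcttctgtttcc
Epcam: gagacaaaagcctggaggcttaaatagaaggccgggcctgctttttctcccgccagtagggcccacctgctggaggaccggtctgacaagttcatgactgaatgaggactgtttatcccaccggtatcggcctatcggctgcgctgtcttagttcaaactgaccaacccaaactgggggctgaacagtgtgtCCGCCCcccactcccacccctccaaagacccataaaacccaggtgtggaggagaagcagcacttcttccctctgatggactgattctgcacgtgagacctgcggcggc
Afp: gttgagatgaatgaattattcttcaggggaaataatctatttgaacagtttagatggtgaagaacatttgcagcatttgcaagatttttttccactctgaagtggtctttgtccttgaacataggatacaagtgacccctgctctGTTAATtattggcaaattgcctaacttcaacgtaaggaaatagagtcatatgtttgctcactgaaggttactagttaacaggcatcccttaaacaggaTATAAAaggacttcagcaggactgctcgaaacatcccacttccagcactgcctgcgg
Both Prom1 promoters hold the AP-1 letters, at -88 to -82 and at -189 to -183 from the start, and neither holds the STAT letters. The upstream Prom1 promoter and the Epcam promoter each hold 1 GC box. The Afp promoter holds the TATA box letters and the HNF1 letters and no GC box. Of the promoters not printed, that of Gpc3 and that of Krt7 hold 4 GC boxes each. Of the 4 Igf2 promoters 2 hold at least 1, and neither of the 2 of Spp1 holds any. Like that of Afp, 1 of the 2 Spp1 promoters holds the TATA box letters (-211 to -206) and the HNF1 letters (-194 to -189). No STAT match was found in any of the 12 promoters of these genes. These are matches of letters, and binding was not measured.

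Sox9, the transcription factor of the embryonic duct plate, was measured with 19 counts or more in every p16-3MR liver. It was 14.7, 37.1 and 6.21 CPM in GCV females 31, 33 and 35 and 2.55, 3.33 and 7.05 CPM in VEH females 27, 28 and 29. GCV females 31 and 33 were above all VEH females and liver 35 was within their range. The log2 fold change of 2.10 (SE 0.622) was 1.20 without liver 33 and 0.98 with total-count scaling, which lowers the values of liver 33. In males Sox9 was 18.3, 8.78 and 7.68 CPM under GCV and 6.30, 9.64 and 9.07 CPM under VEH. Only liver 30 was above the VEH males, and the log2 fold change of 0.48 (SE 0.589) was -0.06 without it. The response in females minus that in males was 1.62 (SE 0.847), with 0.71 to 2.14 over the fits that each left out a liver and 0.39 with total-count scaling.

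Epcam was higher in each GCV liver than in each VEH liver of the same sex, at levels near the floor. Females had 1.54, 1.54 and 1.17 CPM under GCV (livers 31, 33 and 35, 8, 2 and 7 counts) and 0.536, 0.723 and 0.755 CPM under VEH (4, 5 and 6 counts). The value of liver 33 is under its floor, and with total-count scaling the female groups overlapped. The log2 fold change in females was 1.04 (SE 0.760), or 0.93 without liver 33. Males had 1.13, 1.66 and 5.95 CPM under GCV (livers 30, 32 and 34, 8, 17 and 31 counts) and 1.05, 0.893 and 0.625 CPM under VEH (9, 5 and 4 counts). Livers 30 and 24 differed by less than 0.1 CPM, with 8 and 9 counts, and with total-count scaling these groups overlapped too. The log2 fold change in males was 1.72 (SE 0.719) and 0.69 without liver 34.

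Krt19, the keratin most specific to bile duct cells, had most of its counts in GCV male 34. That liver held 88 of the 132 Krt19 counts of the table (66.7%, 16.9 CPM), and the other 11 livers held 0 to 14 counts (0 to 2.35 CPM). GCV males 30 and 32 had 0.282 and 0.195 CPM, within the range of the VEH males (0.350, 0.714 and 0.156 CPM). The log2 fold change of 3.77 in males (SE 1.43) rested on liver 34 and was -0.72 without it. In females Krt19 was 0.771, 0 and 2.35 CPM under GCV and 0.804, 0.434 and 0.629 CPM under VEH, groups that overlapped (log2 fold change 0.96, SE 1.38, and -0.21 without liver 35). Krt7, its partner keratin in the ducts, had no more than 7 counts in any liver. It was 0.938, 0.868 and 0.755 CPM in VEH females and 0.467, 0.357 and 0.156 CPM in VEH males, without overlap (log2 fold change for females over males 1.32, SE 0.970). Under GCV it was 0.578, 0 and 1.17 CPM in females and 0.141, 0.683 and 1.34 CPM in males, in both cases across the range of the VEH livers.

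Some other duct genes were also highest in liver 34. Of the 24 genes of the bile duct epithelium list, 19 averaged at least 1 count, and 6 of these (31.6%) were highest in liver 34, against 8.75% of all 17713 genes at that level. The other 13 were highest elsewhere, 4 of them in VEH male 26 (21.1%, against 6.8% of all genes), and the summed list was highest in liver 33 (1078 CPM, against 823 CPM in liver 34). Among the 6, Muc1, a mucin of the biliary surface, had 64 counts there and 0 to 12 in the other livers (12.3 against at most 2.01 CPM), Tspan8, a membrane tetraspanin, had 43 counts (8.26 against at most 1.98 CPM) and Ehf, an epithelial transcription factor, had 25 counts (4.80 against at most 1.87 CPM). Krt19, Krt7 and Epcam were all at their highest in this liver. Ctrb1, which encodes a digestive enzyme precursor of the pancreatic acinus, had 32 counts in liver 34 and 0 in each of the other 11. Of the 6 genes of the pancreatic acinus list 2 were measured, and they summed to 6.15 CPM in liver 34 and to 0 to 1.35 CPM in the others. The part of tissue other than liver lobules in the Krt19 value of liver 34 was not tested.

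Spp1, which encodes the secreted protein osteopontin, is made by duct cells and by macrophages. It had the most counts of the 10 genes (5121 over the 12 livers). In males it was 90.9, 131 and 54.0 CPM under GCV (livers 30, 32 and 34) and 55.9, 39.5 and 40.3 CPM under VEH (livers 24, 25 and 26). Liver 34 was just under VEH male 24, so the groups overlapped, and the log2 fold change was 1.03 (SE 0.811), with 0.64 without liver 32. In females it was 125, 3.86 and 25.7 CPM under GCV and 29.9, 92.6 and 28.1 CPM under VEH. GCV females ran from the lowest to nearly the highest level of the table, with 5 counts in liver 33, and the log2 fold change of 0.05 (SE 0.805) was -1.68 without liver 31. The highest Spp1 level, in liver 32, went with the highest macrophage sum, whereas the next, in liver 31, went with a macrophage sum of 501 CPM. Their part in the Spp1 level was not tested.

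**Figure D3:**
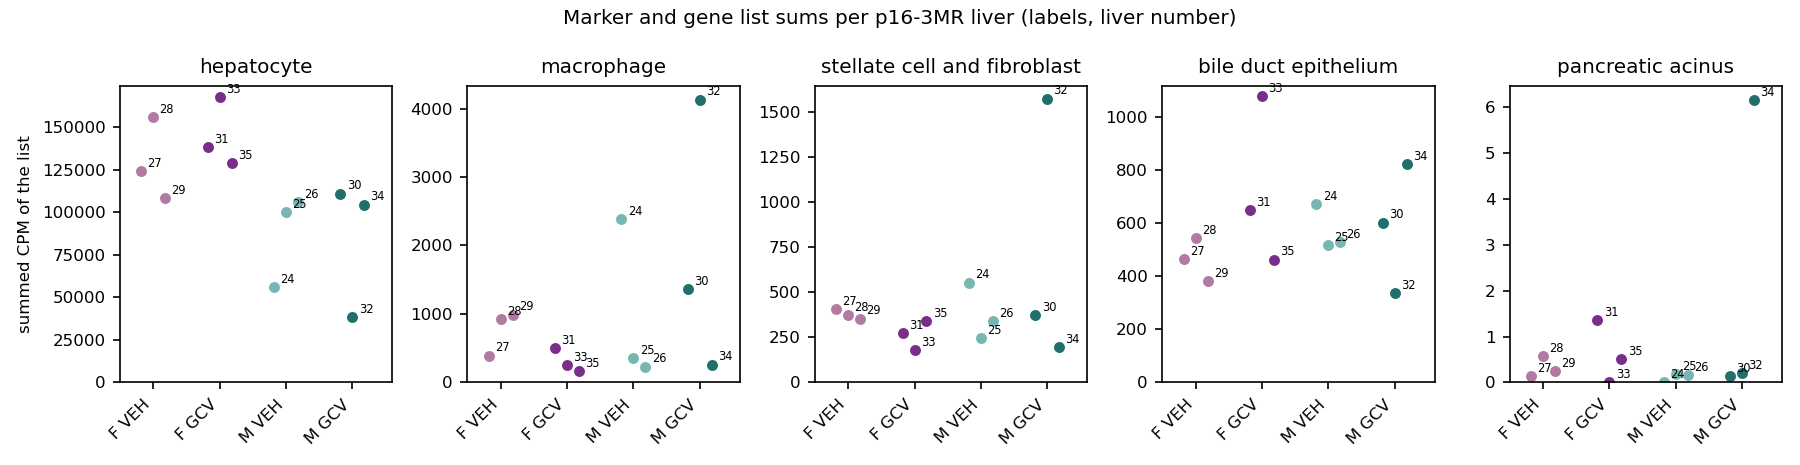
Summed CPM (vertical axes, from 0) of the genes of 4 cell type lists and of the bile duct epithelium list in each p16-3MR liver, by group and with the liver number. GCV male 32 and VEH male 24 have the lowest hepatocyte and highest macrophage sums, and GCV male 34 alone has an acinar sum above 1.35 CPM.

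Set side by side, 9 of the 10 genes had a log2 fold change above 0 in GCV against VEH females (median 0.98), where 46.1% of all genes did (median 0). In males it was 10 of 10 (median 1.16), where 52.8% of all genes did (median 0.04). With total-count scaling, which moved the median of all genes to -0.58 in females and 0.10 in males, the counts were 8 and 9 of 10. Leaving out each liver in turn gave 6 to 9 in females, with 6 without GCV female 31, and 8 to 10 in males. Epcam was the only member higher without overlap in females (1 of 10, beside 5.91% of all genes), and none was lower (beside 7.35%). H19, Igf2, Prom1 and Epcam were higher without overlap in males (4 of 10, beside 3.57%), and none was lower (beside 2.83%). Prom1 and Krt7 were higher in every VEH female than in every VEH male (2 of 10, beside 4.22%), and none was lower in every female (beside 5.13%). With total-count scaling Epcam overlapped in both sexes, the others of these did not, and Sox9 was lower in every VEH female than in every VEH male. The members were chosen on these values, so nothing is read from these counts.

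**Figure D4:**
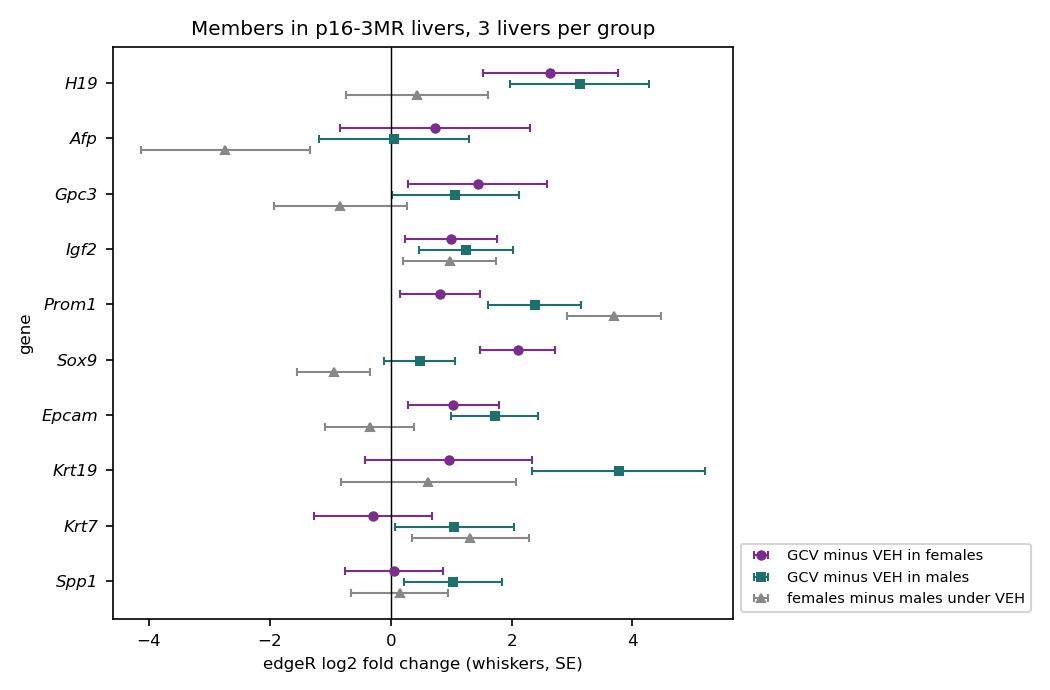
EdgeR log2 fold changes (horizontal axis, whiskers are SE) of the 10 genes in p16-3MR livers for GCV over VEH livers of either sex and for VEH females over VEH males (n = 3 per group). Krt19 in males lies furthest right at 3.77 but depends on 1 liver, and Prom1 has the largest difference between the sexes at 3.70.

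In wild-type livers, which lack the transgene, the 5 genes with an unambiguous label had 0 to 16 counts per liver, and their levels were of the order of a few CPM at most. Afp was 0.452, 0.288 and 0 CPM in GCV females 4, 5 and 6 and 0.344, 1.77 and 2.12 CPM in VEH females 4, 5 and 6. The groups overlapped at VEH female 4 (log2 fold change -2.44, SE 0.969, from 3 against 19 counts in all). The fold change was -3.28 without GCV female 4 and -1.78 without GCV female 6. In males it was 3.46, 1.03 and 1.53 CPM under GCV (livers 1, 2 and 3) and 0.798, 1.09 and 0.967 CPM under VEH (log2 fold change 1.00, SE 0.777, and 0.38 without GCV male 1), again with overlap. The response in females minus that in males was -3.44 (SE 1.25), with -4.28 to -2.78 over the fits that each left out a liver. In the p16-3MR table the Afp responses were 0.73 (SE 1.57) in females, which was -0.41 without GCV female 31, and 0.05 (SE 1.24) in males.

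Epcam was higher in every wild-type VEH female (1.72, 3.54 and 1.88 CPM in livers 4, 5 and 6) than in every VEH male (0.798, 1.53 and 0.387 CPM in livers 1, 2 and 3), with a log2 fold change of 1.37 (SE 0.670). Of the 5 genes it alone was without overlap in this comparison (1 of 5, beside 9.82% of all genes higher and 8.69% lower in females). VEH females and males of the p16-3MR line had Epcam at 0.672 ± 0.118 and 0.856 ± 0.215 CPM. Under GCV, wild-type Epcam was 2.94, 0.575 and 1.64 CPM in females and 0.943, 2.05 and 0.916 CPM in males, overlapping with VEH in both sexes. Krt19 was 1.47 ± 0.329 CPM in GCV and 1.17 ± 0.954 CPM in VEH females, and 0.649 ± 0.498 CPM in GCV and 0.605 ± 0.182 CPM in VEH males. The highest wild-type Krt19 level was 2.21 CPM, in VEH female 5. Krt7 (0 to 1.57 CPM) and Gpc3 (0 to 2.59 CPM) overlapped between all groups compared. Gpc3 was above 3 counts in 1 of 12 wild-type livers, GCV female 5 with 9 counts. No wild-type GCV contrast separated a member (0 of 5 in either sex, beside 5.05% and 4.48% of all genes higher and 4.95% and 4.37% lower without overlap in females and males).

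**Figure D5:**
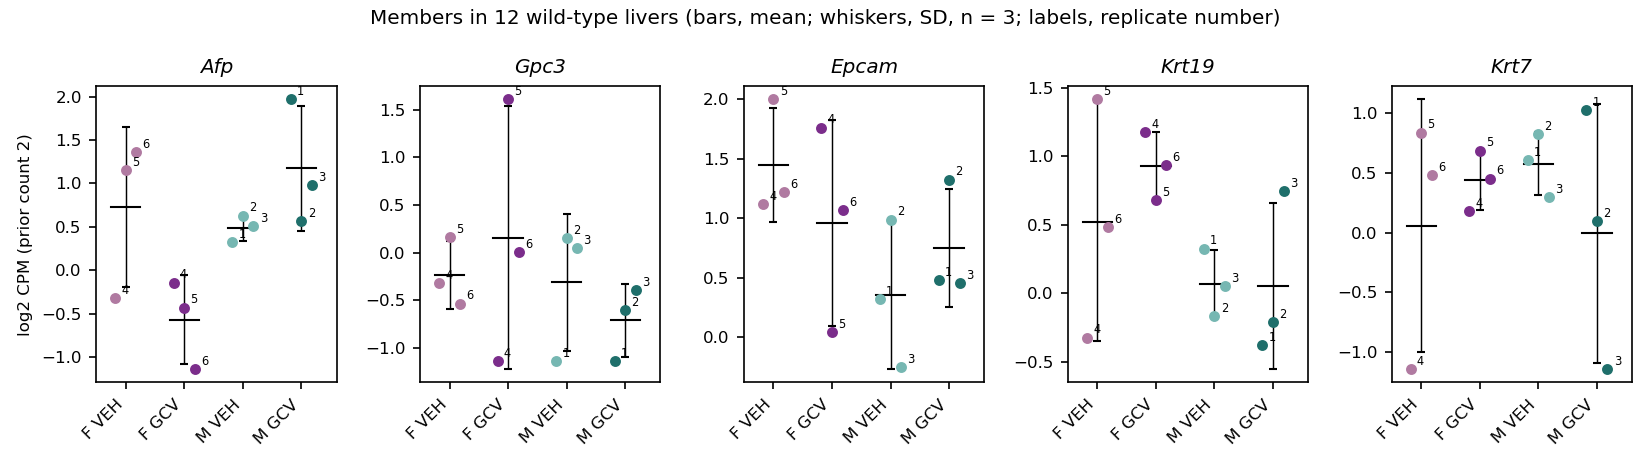
Log2 CPM (prior count 2, vertical axes) of the 5 genes with an unambiguous label in the 4 wild-type groups, 1 point per liver with its replicate number. Bars give the mean and whiskers the SD (n = 3). GCV and VEH overlap for every gene in both sexes, and Epcam is higher in each VEH female than in each VEH male.

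The genes around the members were taken from lists of known function and tested in the same edgeR fits. In p16-3MR livers 116 of 124 listed genes were measured, and none passed an adjusted p of 0.05 by edgeR's quasi-likelihood test for GCV against VEH in females (beside 0% of all genes), in males (0%), in the difference of the responses (0%) or between the sexes under VEH (0.12%). At an unadjusted p under 0.05 edgeR counted 11 in females (9.48%, beside 7.37% of all genes), 6 in males (5.17%, beside 1.91%), 5 for the difference (4.31%, beside 3.78%) and 2 between the sexes (1.72%, beside 2.74%). DESeq2 called 2 of the 94 to which it gave an adjusted p in females (2.13%, beside 0.648% of all genes), 0 of 116 in males (beside 0.0231%), 0 of 116 for the difference (beside 0.0138%) and 1 of 102 between the sexes (0.98%, beside 0.596%). Among the H19-Igf2 neighbours, Kcnq1ot1, the non-coding RNA of the adjoining imprinted domain, was 52.1, 114 and 14.1 CPM in GCV females and 8.58, 12.9 and 8.43 CPM in VEH females (log2 fold change 2.56, SE 0.587, adjusted p = 0.646 by edgeR). All GCV females were above all VEH females, the highest being liver 33. It was the only 1 of the 15 measured neighbours higher without overlap in females (beside 5.91% of all genes). None was lower without overlap (beside 7.35%). In females Spint2, a protease inhibitor of the bile duct epithelium list, was 63.9 ± 34.6 CPM under GCV and 22.8 ± 4.22 CPM under VEH, without overlap (adjusted p = 0.653 by edgeR). Of the 24 genes of that list 1 was higher and 1 lower without overlap in females. Tnfrsf12a, the receptor by which TWEAK drives the ductular reaction, was 24.7, 18.5 and 3.19 CPM under GCV and 2.28, 2.60 and 5.41 CPM under VEH, with overlap at liver 35 (adjusted p = 0.653 by edgeR). Of the fetal growth genes, Peg3 was 60.9, 85.7 and 4.86 CPM under GCV and 4.82, 35.7 and 4.28 CPM under VEH (adjusted p = 0.671 by edgeR). As for Sox9, GCV females 31 and 33 were the high livers for Spint2, Tnfrsf12a and Peg3. Of the 15 measured neighbours 7 were above 0 in females and 12 in males (medians -0.01 and 0.86, beside 46.1% and 52.8% of all genes). Of the 13 neighbours with a mean of at least 1 count, 6 (46.2%) were highest in liver 32, as were 19.6% of all genes, and without that liver 11 of 15 were above 0 in males with a median of 0.14. In the IGF list, no gene passed in either sex, and Igf1, the hepatic growth hormone target, was 1508 ± 923 CPM in GCV and 632 ± 68.4 CPM in VEH females (adjusted p = 0.670 by edgeR). Igf2r, which clears Igf2, was lower in each GCV male than in each VEH male (20.8 ± 6.16 against 31.1 ± 2.62 CPM, log2 fold change -0.58, SE 0.337, adjusted p = 1 by edgeR). No other of the 12 IGF genes was without overlap in males, where 3.57% of all genes were higher and 2.83% lower.

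Of the 13 regulators of Afp, H19 and Gpc3, none passed the test in p16-3MR livers. Zhx2, a repressor of these 3 genes in the adult liver, was 6.76, 4.88 and 6.72 CPM in GCV males and 7.12, 11.3 and 16.9 CPM in VEH males (log2 fold change -0.94, SE 0.437, adjusted p = 1 by edgeR). The groups did not overlap. H19 was without overlap in the opposite direction in these livers, and Afp and Gpc3 overlapped. A link between the Zhx2 level and these genes was not tested. In females Zhx2 was 6.17, 3.09 and 9.73 CPM under GCV and 8.04, 10.4 and 8.81 CPM under VEH. Cebpb, a transcription factor of the acute phase response, was higher in each GCV male than in each VEH male (31.8 ± 8.73 against 15.4 ± 2.70 CPM, adjusted p = 1 by edgeR). In males 1 of the 13 regulators was thus higher and 1 lower without overlap (beside 3.57% and 2.83% of all genes). Among the ductular reaction genes Lcn2, a secreted protein of injured epithelium, was 515 ± 177 CPM in GCV and 51.0 ± 72.3 CPM in VEH males, without overlap (log2 fold change 3.33, SE 1.54, adjusted p = 1 by edgeR). It was the only 1 of the 20 measured genes of its list without overlap in males. In females Lcn2 was 2822, 248.7 and 23.3 CPM under GCV and 44.0, 699 and 68.0 CPM under VEH, with overlap (adjusted p = 0.735 by edgeR). GCV female 31, the liver with the highest Prom1 level and the highest Spp1 level of the females, stood apart in this list's sum. The sum was 3031 CPM, 2822 CPM of it Lcn2, against 183 to 912 CPM in the other livers. Of the 18 list genes with a mean of at least 1 count, 3 (16.7%) were highest in liver 31, as were 10% of all genes. In the fits without this liver the female log2 fold changes of Prom1 and Spp1 were below 0, as given above. The source of its Lcn2 level was not tested. None of the 8 osteopontin receptor genes passed the threshold. In males all 8 had log2 fold changes above 0 (median 0.77), but 7 of them were highest in liver 32, and without that liver 1 of 8 was above 0 (median -0.23). In females all 8 were below 0 (median -0.67), with 0 to 1 above 0 when each liver was left out. The macrophage markers were likewise above 0 in males in 10 of 10 (median 0.95) and in 4 of 10 without liver 32 (median -0.21), and below 0 in 8 of 10 in females (median -1.11). The part of macrophages in the receptor levels was not tested. Cd44 was at its highest in liver 32 (130.5 CPM, against 8.39 to 42.9 CPM elsewhere), the liver with most Spp1. Axin2, a Wnt target of the tumour list, was 0.705, 0.781 and 3.84 CPM in GCV males and 6.53, 3.93 and 5.47 CPM in VEH males (adjusted p = 1 by edgeR). In females the fetal growth, regulator, osteopontin receptor and tumour lists each had 1 gene lower without overlap, and the IGF and tumour lists each had 1 higher.

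In wild-type livers 65 of the 124 listed genes had an unambiguous label. None passed by edgeR for GCV in females (beside 0.00791% of all genes), in males (0%) or for the difference of the responses (0.00791%). DESeq2 called 0 of the 19 to which it gave an adjusted p in females (beside 0.476% of all genes). It called 0 of 65 in males (beside 0.00791%) and 0 of 65 for the difference (beside 0.00791%). At an unadjusted p under 0.05 edgeR counted 6 in females (9.23%, beside 4.56% of all genes), 5 in males (7.69%, beside 5.06%) and 7 for the difference (10.8%, beside 4.45%). Between the sexes under VEH, 4 of 65 passed (6.15%, beside 3.82% of all genes), with 1 to 5 when a liver was left out and 17 with total-count scaling, and 19 had an unadjusted p under 0.05 (29.2%, beside 15.2%). Foxa2, a liver pioneer factor, was higher in females (56.8 ± 13.6 against 36.9 ± 8.34 CPM, adjusted p = 0.0436 by edgeR), as was the osteopontin receptor subunit Itga9 (20.9 ± 1.65 against 13.2 ± 1.42 CPM, adjusted p = 0.0375 by edgeR). The protease inhibitor Spint2 (48.5 ± 4.76 against 68.0 ± 5.17 CPM, adjusted p = 0.0305 by edgeR) and Tff3, a mucosal trefoil peptide (0.131 ± 0.116 against 24.2 ± 24.5 CPM, adjusted p = 4.6e-05 by edgeR), were lower in females. Over 18 alternative fits Tff3 was called in all, whereas Spint2 was lost in 6, total-count scaling among them, and Foxa2 and Itga9 in 8 each. In p16-3MR livers Tff3 was at 0 counts in all 3 VEH females, at 49, 7 and 5 in VEH males, at 16, 4 and 6 in GCV females and at 97, 23 and 9 in GCV males.

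The genes whose log2 CPM across the 12 p16-3MR livers was most like that of H19, among 12374 named genes with a mean of at least 10 counts, were Metap2 (Pearson r 0.863, Spearman rho 0.755), Clta (0.860 and 0.846), Odc1 (0.849 and 0.888), Nono (0.847 and 0.888) and Rnaset2a (0.839 and 0.748). None of the other 9 members was among them, and the highest r of H19 with a member was 0.438, with Krt7, or 0.673, with Igf2, without liver 33. The ranking leaned on liver 33, where H19 was at 0 counts: without it only Clta of these 5 genes was still among the first 5. Among the members, Krt19 and Krt7 were closest over the 12 livers (r 0.720, rho 0.804), and Sox9 and Krt7 furthest apart (r -0.752, rho -0.776). Krt19 and Epcam had an r of 0.678 and a rho of 0.049 over the 12 livers, and both were highest in liver 34. Without liver 33 Krt19 and Epcam were closest by r (0.780, rho 0.245). Krt19 and Krt7 then had an r of 0.678 (rho 0.745), and Sox9 and Krt7 one of -0.590 (rho -0.709). All these coefficients are descriptions across livers that share depth and composition differences.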

How the data were processed

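Livers of 24 mice were profiled by Smart-3SEQ, which reads the 3′ ends of polyadenylated RNA. Per the labels and the study's methods, the authors trimmed reads with Trim Galore 0.6.10, checked them with FastQC 0.11.9, quantified them with Salmon 1.10.3 (mm10), summed transcripts to genes with tximport and left out genes with fewer than 3 reads. The deposited values are estimated counts, given as whole numbers and not normalized. The 10 members, the gene lists and the comparisons were chosen with earlier results of these data known.

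Symbols and coordinates came from GENCODE M21 (GRCm38), and 21698 of the 21755 p16-3MR rows matched a symbol. Of the 12643 wild-type labels, 10496 fitted 1 symbol, 2067 several and 80 none, and only the first were used. Each table was fitted with edgeR 4.0.16 (R 4.3.3; quasi-likelihood, TMM factors, 1 mean per group, all 12 livers, Benjamini-Hochberg adjustment over all genes, threshold 0.05), with no test between tables. The procedure was run on simulated data, and no result is drawn from that run. The common coefficient of variation between livers estimated by edgeR was 55.8% in p16-3MR and 16.6% in wild-type livers. At that spread, with 3 livers per group, a gene that did not pass may still have changed. Log2 CPM used a prior count of 2. Groups do not overlap where the lowest CPM of one is above the highest of the other. Named from each list and comparison were the genes called (the 4 with the lowest p if more passed), or some of the 2 with the lowest p if none passed. Ehf and Ctrb1 were named after their values were seen. Likeness to H19 named the 5 genes with the highest Pearson r. Alternatives were DESeq2 1.42.0, its size factors, filterByExpr, limma-voom 3.58.1 with quality weights, an adjusted p of 0.1, the 6 livers of a sex, a replicate block, each liver left out and, added after seeing the data, total-count scaling and the gene lists without each liver. Strand use in counting is not given in the sources used here: Afp, Gpc3, H19, Igf2, Krt7 and Prom1 overlap annotated genes on the other strand. Gpc3, H19, Igf2, Prom1 and Spp1 overlap genes on their own strand (only microRNAs for Gpc3 and H19). Reads of overlapping genes may be shared. Mice were separate animals, and counts near 0 carry counting error that CPM does not show.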

Additional observations from a re-analysis of the deposited data

Results flagged for a closer look

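In wild-type livers 3 of 65 listed genes (4.62%, beside 0.435% of all genes) had every GCV liver on one side of every VEH liver in females and on the other side in males. In p16-3MR livers 0 of 116 listed genes did (beside 0.184% of all genes). Foxa1, a pioneer factor that acts at the Afp enhancers, had log2 fold changes of -1.43 in females and 0.76 in males, a difference of -2.19 (SE 0.500, adjusted p = 0.632 by edgeR). Grb10, an imprinted growth inhibitor, had -0.95 and 1.49, a difference of -2.44 (SE 0.769, adjusted p = 0.982 by edgeR). Igf2r had -0.21 and 0.33, a difference of -0.53 (adjusted p = 0.982 by edgeR). None of the 3 differences passed the test over all genes, and no member had such a pattern in either table.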

How the results depend on the processing

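The members were chosen on these values, so calls of a member are given for completeness and support nothing. EdgeR called 0 members in each comparison. Between the sexes of p16-3MR VEH livers DESeq2 and limma-voom each passed 1 of 10 (Prom1, beside 0.596% and 0.708% of all genes), and the fits that each left out a liver 0 to 1 (1 without GCV female 31 or 33, beside 0.124% and 0.115%). Of the listed genes in p16-3MR livers, DESeq2 called 2 in females (Kcnq1ot1 and Tff3) and 1 between the sexes (Tff3), and limma-voom called 1 of 116 in males (Axin2, beside 0.667% of all genes), where edgeR called 0. In wild-type females the fit of the 6 female livers alone called 1 of 65 listed genes (Foxa1, beside 0.348% of all genes), as did the replicate block (beside 0.949%), and the fits that each left out a liver called 0 to 1 (Foxa1 without VEH female 5, beside 0.0949%). In wild-type males those fits called 0 to 1 (Lcn2 without VEH male 1, beside 0.364%). Between the sexes of wild-type VEH livers, total-count scaling, which moved the median log2 fold change of all genes to 0.36, called 17 of 65 listed genes in place of 4 (26.2%, beside 14.2% of all genes, in place of 6.15% beside 3.82%), and leaving out a liver gave 1 to 5 (1 without VEH female 6, 2 without GCV female 4, 5 or 6 or VEH male 2 or 3). Of the 5 genes most like H19, 2 stayed with Spearman's rho and 1 without GCV female 33. The members' fold changes depended on single livers: leaving out a liver turned the sign for 5 of 10 members in p16-3MR females and for 4 of 10 in p16-3MR males (H19 in females went from 2.64 to -1.25, Krt19 in males from 3.77 to -0.72).

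Whether equal replicate numbers in the wild-type labels mark paired livers cannot be decided from these values. The correlations of same-numbered GCV and VEH livers' deviations were -0.019, -0.026 and 0.027 in females and 0.11, 0.158 and -0.018 in males. Those of differently numbered livers ran from -0.037 to 0.052 in females and from -0.195 to 0.083 in males. With the replicate block 120 genes were called in females, 80 in males and 79 for the difference of the responses. The main fits, without a block, called 1, 0 and 1. For the difference the block called 2 listed genes (Foxa1 and Onecut1), and it called no member. The p16-3MR numbers are not shared between groups. Low counts, as for Krt7 and for most livers of Afp, Igf2, Epcam and Krt19, limit what can be resolved, and filterByExpr kept 7 of the 10 members in the p16-3MR table and 0 of the 5 in the wild-type table.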
